A study of Mus musculus with 6 samples.

Results

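Elastic fibres give blood vessels, heart valves and the cardiac interstitium their recoil. Each fibre has a core of crosslinked elastin laid down on a scaffold of microfibrils, which are built from fibrillin and carry small associated glycoproteins. The fibulins are secreted glycoproteins with repeated EGF-like domains, and some of them bring elastin, the microfibrils and the lysyl oxidase enzymes together. The 10 genes described here encode elastin (*Eln*), fibrillin-1 (*Fbn1*), the microfibril-associated proteins *Mfap4* and *Mfap5*, the elastin microfibril interfacer *Emilin1* and 5 fibulins, which are *Fbln1*, *Fbln2*, *Fbln5*, *Efemp2* (fibulin-4) and *Efemp1* (fibulin-3). They were chosen by symbol, out of 27307 genes that the array annotation names, and every probe with one of these symbols was taken. There were 19 such probes, of which 18 were tested, so that each of the 10 genes had at least 1 tested probe.

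RNA came from the myocardium of male C57BL/6J *Clk4*-cKO mice, and each of the 6 mice had its own single-colour array. In 3 mice an AAV9 vector had delivered wild-type nexilin (NEXN-WT), a filament-binding protein of the cardiomyocyte. In the other 3 it had delivered NEXN-S437E, in which a glutamate mimics a phosphorylated serine. In all 6 mice floxed *Clk4* had been deleted by tamoxifen-inducible MerCreMer, which the α-MHC promoter drives in cardiomyocytes, while the CMV promoter of both vectors, which also encode GFP, is not restricted to a cell type. The vectors were injected into young mice, whose ages at harvest are not given in the labels. Hearts with intact *Clk4* or without a vector were not analysed here. The comparison asks how the myocardial transcripts of these genes differ when the phosphomimetic replaces the wild-type protein.

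Values are log2 signals minus the 75th percentile of their array. Testing with limma took the probes that every array of one or both groups detected well above background, 22998 of 56605. On the linear scale the percentile ranged from 110 to 273, and 41.9% to 47.8% of the spots of an array were well above background. NEXN-WT replicate 1 stood apart. Over all tested probes it differed from the other arrays of its group by a mean of 0.38 and 0.44 on the log2 scale, against 0.25 between NEXN-WT replicates 2 and 3, and over the 18 member probes by 1.03 and 1.06, against 0.28. It held the highest of the 6 values for 15 of the 18 member probes and the lowest for 2, both of *Efemp1*, whereas over all tested probes it was the highest for 22.5% and the lowest for 41.4%. Log2 fold changes of the members, shifts between probes and list medians are therefore also given without it. The 1 *Clk4* probe that passed the filter lay between 1.12 and 1.63 on all 6 arrays, which checks no label, since both groups carry the deletion and the vectors differ by one codon of *Nexn*. The log2 fold changes of the *Nexn* probes were 0.02 and 0.14 (SEs 0.23 and 0.20). The 13 cardiomyocyte marker probes were well above background on every array.

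Of the 18 tested probes, 10 were lower with NEXN-S437E when both a 2-fold difference and an unadjusted p under 0.05 were asked for, and 2 were higher. Among all tested probes 1.78% were called lower and 0.735% higher. The lower probes belonged to *Eln*, *Fbn1*, *Mfap4*, *Mfap5*, *Fbln1* and, through a dim probe, *Efemp2*. Both higher probes belonged to *Efemp1*. By the leading probe of each gene, which is its tested probe of highest mean signal, 5 genes fell, 1 rose and 4 (*Fbln2*, *Fbln5*, *Efemp2* and *Emilin1*) did not pass. With bulk tissue, fewer cells of a type cannot be told apart from less RNA per cell.

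None (0) of the 18 probes passed an adjusted p of 0.05 in limma, with Benjamini-Hochberg adjustment over all 22998 tested probes, where 0.161% of all probes did. Their adjusted p ran from 0.0538 to 0.326. Other settings of limma passed up to 15, and the unpaired test named in the study's methods passed 0. At an unadjusted p under 0.05 there were 17 of 18 member probes, against 17.2% of all probes. The median log2 fold change of the 18 probes was −1.17, and that of all tested probes was 0.09. In 16 of the 18 probes the groups did not overlap and NEXN-S437E was lower, a pattern found in 9.17% of all probes. In the other 2 they did not overlap and NEXN-S437E was higher, as in 18.7% of all probes. Of the 18 probes, 16 were well above background on all 6 arrays, and of these 9 were called lower and 1 higher. Without NEXN-WT replicate 1, 7 member probes were called lower, 2 were called higher and 5 passed the adjusted threshold, while over all probes these shares were 1.15%, 0.436% and 0.548%.

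**Figure D1:**
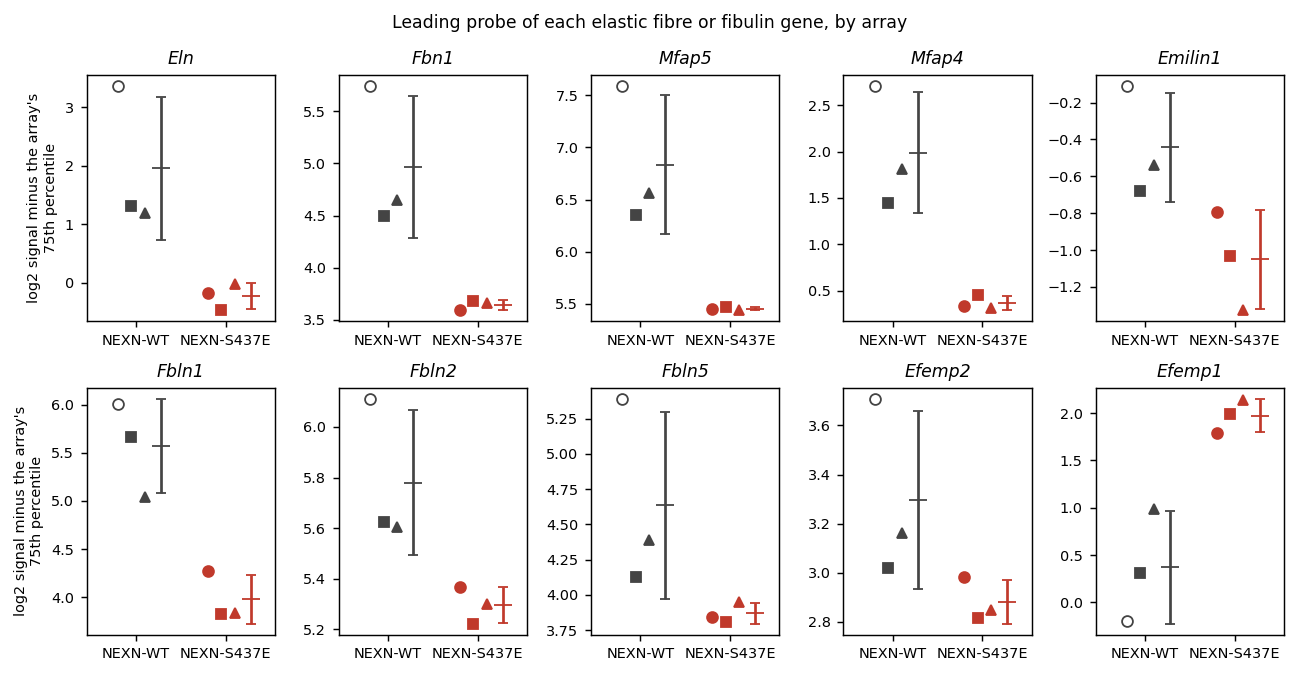
Log2 signal minus the array's 75th percentile for the leading probe of each gene, with NEXN-WT arrays in grey and NEXN-S437E arrays in red (circle, square and triangle for replicates 1, 2 and 3; the open circle is NEXN-WT replicate 1) and mean ± SD beside them. The vertical axes differ between genes, and levels of different genes are not comparable. The groups do not overlap for any of the 10 genes, and *Efemp1* alone is higher with NEXN-S437E.

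By leading probe the core protein had the largest decrease on all 6 arrays, although with array weights *Fbln1* (−1.73) fell more than *Eln* (−1.55). A pair of nearby probes report *Eln*, whose product tropoelastin is crosslinked into the fibre. Both lie on chromosome 5 of mm9 on the minus strand, A_52_P609972 from 135179129 to 135179188 and A_55_P2797109 from 135178554 to 135178613. The first 30 of the 60 bases of each are shown, so that the targets can be told apart.

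A_52_P609972: ataccggaagccttgacgatggatttggtg
A_55_P2797109: ggggagctatttcttcaggagaaaattcat

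On A_52_P609972, the leading probe, *Eln* was at 3.37, 1.31 and 1.20 in the NEXN-WT hearts and at −0.17, −0.47 and −0.02 in the NEXN-S437E hearts. Every NEXN-S437E heart lay below every NEXN-WT heart, by at least 1.22 on the log2 scale, and NEXN-WT replicate 1 lay well above the rest of its group. The log2 fold change was −2.18 (standard error, SE, 0.52, limma adjusted p = 0.135), a 4.52-fold decrease, which was 2.78-fold without NEXN-WT replicate 1. A_55_P2797109 read 3.08, 0.68 and 0.21 against −1.45, −1.39 and −1.09. Its log2 fold change was −2.63 (SE 0.65, limma adjusted p = 0.139), a 6.21-fold decrease, or 3.38-fold without NEXN-WT replicate 1. Without that array both *Eln* probes passed the adjusted threshold, at 0.0278 and 0.0268 (limma, 23158 probes tested).

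Fibrillin-1, the rod of the microfibril, was read by 3 *Fbn1* probes on chromosome 2. The leading probe, A_55_P2931427, lies at 125126583 to 125126642 of mm9 on the minus strand and begins as follows.

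A_55_P2931427: tgttaaacatctacaccaaatggtagtgga

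Its values were 5.74, 4.49 and 4.65 with NEXN-WT and 3.59, 3.68 and 3.66 with NEXN-S437E. The NEXN-S437E hearts were within 0.09 of each other and all lower than the NEXN-WT hearts. The log2 fold change of −1.32 (SE 0.31, limma adjusted p = 0.134) became −0.93 without NEXN-WT replicate 1, which is under the 2-fold threshold while its adjusted p was 0.0449. A_51_P467224, which starts 144 bases away, changed by −1.24 (SE 0.31). A_55_P2732863, designed on a cDNA clone and placed 163744 bases from the leading probe, changed by −1.19 (SE 0.35). Without NEXN-WT replicate 1 these were −0.84 and −0.77, so that no *Fbn1* probe reached 2-fold on the 5 arrays.

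*Mfap5* and *Mfap4* encode glycoproteins that sit on microfibrils, and each had 1 probe. The *Mfap5* probe A_55_P2062777 lies on chromosome 6 from 122478591 to 122478650, and the *Mfap4* probe A_66_P131467 on chromosome 11 from 61301517 to 61301576, both on the plus strand of mm9. The first 30 bases of the *Mfap4* probe are given as the identity of the only probe for this gene.

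A_66_P131467: gcaggccccatctttcccctgaagtcccaa

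*Mfap5* was at 7.59, 6.35 and 6.56 in the NEXN-WT hearts and at 5.45, 5.47 and 5.44 in the NEXN-S437E hearts. Among the leading probes its SD of 0.02 (n = 3) with NEXN-S437E was the lowest. Its log2 fold change was −1.38 (SE 0.30, limma adjusted p = 0.125), a 2.61-fold decrease that was 2.00-fold without NEXN-WT replicate 1. *Mfap4* read 2.71, 1.44 and 1.81 against 0.33, 0.46 and 0.31, with a log2 fold change of −1.62 (SE 0.30, limma adjusted p = 0.0916). Without NEXN-WT replicate 1 it was −1.26, and both genes then passed the adjusted threshold, *Mfap4* at 0.0368 and *Mfap5* at 0.0385 (limma). The lowest NEXN-WT heart stood 0.99 above the highest NEXN-S437E heart for *Mfap4* and 0.88 for *Mfap5*.

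*Emilin1*, whose product lies between the elastin core and the microfibrils, did not reach 2-fold. Its probe A_51_P222359 is placed across a gap on chromosome 5 of mm9, from 31222545 to 31223001 on the plus strand, and its first frame runs through 20 codons without a stop. The whole probe is shown for comparison with the cysteine-bearing probes of *Efemp1* and *Efemp2* printed with those genes, since it has no cysteine codon in that frame.

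A_51_P222359: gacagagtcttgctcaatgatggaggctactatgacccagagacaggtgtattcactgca

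The values were −0.11, −0.68 and −0.54 with NEXN-WT and −0.79, −1.03 and −1.33 with NEXN-S437E. The groups were 0.11 apart at their nearest. The log2 fold change was −0.61 (SE 0.21, unadjusted p = 0.0194, limma adjusted p = 0.222) and −0.44 without NEXN-WT replicate 1.

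Among the fibulins, *Fbln1*, a component of elastic fibres and basement membranes, had 3 probes on chromosome 15. A_52_P588483 lies at 85115998 to 85116057 and the other 2 lie upstream, A_55_P2740354 at 85082266 to 85082325 and A_65_P08768 at 85081927 to 85081986, all on the plus strand of mm9. Fibulin-1 transcripts are known to end at alternative sites, and the array annotation does not assign the probes to a form. The upstream probe A_55_P2740354 holds the AATAAA hexamer of a polyadenylation signal, in capitals below.

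A_55_P2740354, bases 9 to 38: ccttggggttctAATAAActctcagcagcc
A_52_P588483, bases 1 to 30: ttttttaaccaacggggctctttgtgtttc

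The leading probe A_52_P588483 was at 6.00, 5.67 and 5.05 with NEXN-WT and at 4.27, 3.83 and 3.84 with NEXN-S437E. The log2 difference between the means was −1.59 (SE 0.26, limma adjusted p = 0.0799). A_65_P08768 read 3.67, 3.63 and 3.28 against 2.50, 2.31 and 2.30, and its log2 fold change of −1.16 (SE 0.16) had the lowest adjusted p of all member probes, 0.0538 from limma. A_55_P2740354 read 4.27, 4.85 and 4.31 against 3.92, 3.60 and 3.61, a change of −0.76 (SE 0.20, limma adjusted p = 0.153) that missed 2-fold. It is the 1 lower member probe on which NEXN-WT replicate 1 was not the highest array. Without that array the 3 changes were −1.38, −1.09 and −0.86, and none passed the adjusted threshold.

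The sizes of the 3 *Fbln1* changes were compared within each array. The difference between A_52_P588483 and A_55_P2740354, which are 33732 bases apart, was 1.73, 0.82 and 0.74 in the NEXN-WT hearts and 0.35, 0.22 and 0.23 in the NEXN-S437E hearts. It shifted by −0.83, with no overlap between the groups, and by −0.51 without NEXN-WT replicate 1. An exact two-sided permutation test gave p = 0.1, and 0.25 after adjustment over the 10 pairs of tested probes of 1 gene. The 2 upstream probes, 339 bases apart, shifted against each other by 0.40 (exact permutation p = 0.1, adjusted 0.25), or 0.22 without that array. The remaining *Fbln1* pair, A_52_P588483 and A_65_P08768, overlapped and shifted by −0.43 (exact permutation p = 0.2, adjusted 0.333), or −0.29 without that array. Such shifts were not limited to *Fbln1*, as the *Eln* pair 575 bases apart shifted by 0.46 (exact permutation p = 0.2, adjusted 0.333), or 0.28 without that array. The *Fbn1* pair 144 bases apart shifted by 0.08 and the overlapping *Fbln5* pair by 0.06 (exact permutation p = 0.1 and 0.7, adjusted 0.25 and 0.875), or 0.09 and 0.01 without that array. This test cannot go below 0.1 with 3 arrays against 3.

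**Figure D2:**
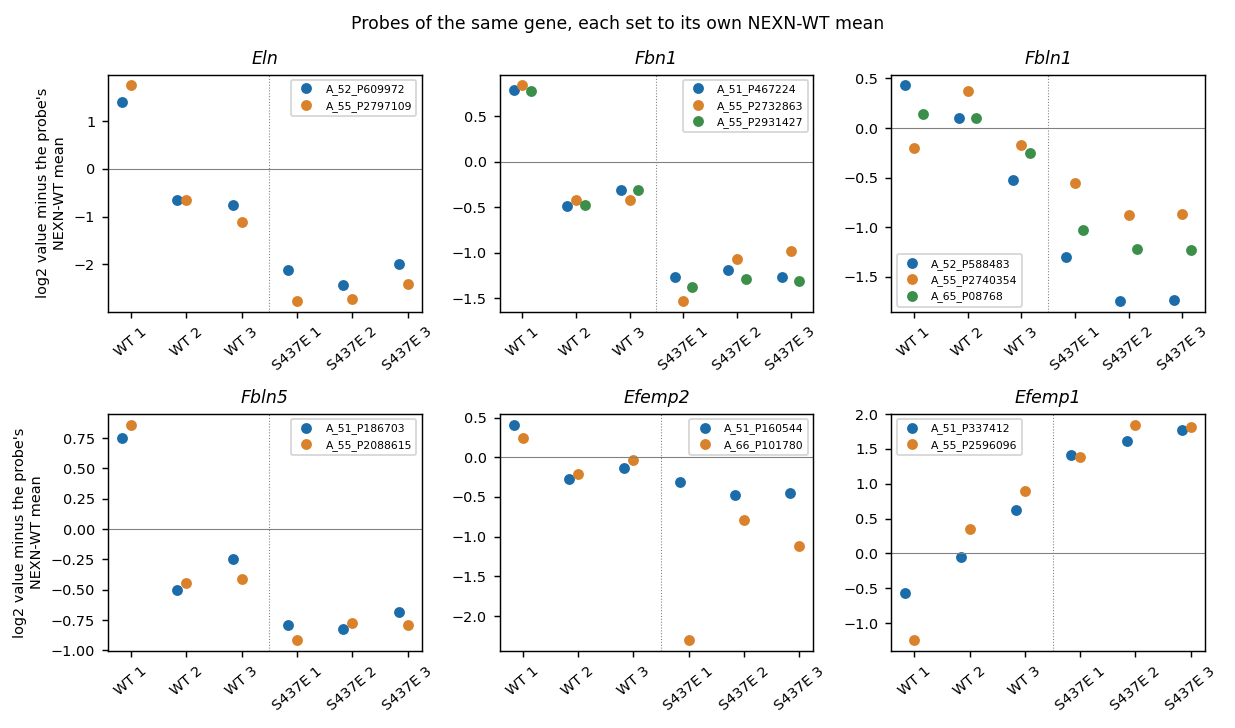
Log2 value of each tested probe minus its own mean over the NEXN-WT arrays (vertical axis), for the 6 genes with several tested probes, by array (horizontal axis, replicates in no order). The *Fbn1* and *Fbln5* probes lie close together on most arrays, and *Fbln1* A_52_P588483 and A_55_P2740354 lie farther apart in the NEXN-S437E hearts. The spacing of the *Eln* probes overlaps between the groups. The *Efemp2* probe A_66_P101780 was not well above background in those hearts, so its position there is no measured level.

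*Fbln2* and *Fbln5* missed the 2-fold threshold. The *Fbln2* probe A_52_P590535, on chromosome 6 from 91222118 to 91222177, carries an ATTAAA hexamer near its end. Its values were 6.11, 5.63 and 5.60 with NEXN-WT and 5.37, 5.22 and 5.30 with NEXN-S437E, a log2 fold change of −0.48 (SE 0.18, limma adjusted p = 0.238), and −0.32 without NEXN-WT replicate 1.

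A_52_P590535, bases 31 to 60: ccttcatccactgtgttcctcaATTAAAaa

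*Fbln5*, which binds elastin and integrins, had a pair of overlapping tested probes on the minus strand of chromosome 12. A_51_P186703 lies at 102988189 to 102988248 and A_55_P2088615 at 102988153 to 102988212, so they share 24 positions and are not independent measurements. Over the shared positions, counted from 1 at the 5′ end, they differ by C22T, with the base of A_51_P186703 first. The differing base is in capitals.

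A_51_P186703: ttaagagtttttacccaactgCgt
A_55_P2088615: ttaagagtttttacccaactgTgt

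A_51_P186703 read 5.39, 4.13 and 4.39 with NEXN-WT and 3.85, 3.81 and 3.95 with NEXN-S437E. A_55_P2088615 read 4.58, 3.27 and 3.31 against 2.80, 2.94 and 2.93. The log2 fold changes were −0.77 and −0.83 (SEs 0.30 and 0.33, limma adjusted p = 0.259 and 0.263). Their size depended on NEXN-WT replicate 1, without which they were −0.39 and −0.40. Without NEXN-WT replicate 2 they were −1.02 and −1.05, past the 2-fold threshold, as was A_55_P2088615 without NEXN-WT replicate 3 (−1.04). A further *Fbln5* probe, A_52_P288050, was detected well above background by no array and was not tested.

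*Efemp2* encodes fibulin-4, which is needed for the crosslinking of elastin. Its leading probe A_51_P160544, on chromosome 19 from 5481762 to 5481821, had the smallest change of the 10 genes in the main fit. With normexp background correction its change of −0.59 was larger than those of *Fbln2* (−0.57) and *Emilin1* (−0.38). The *Efemp2* probe read 3.71, 3.02 and 3.16 against 2.98, 2.82 and 2.85. The groups were only 0.04 apart, and the log2 fold change of −0.41 (SE 0.20, 95% interval −0.88 to 0.05, limma adjusted p = 0.326) was −0.21 without NEXN-WT replicate 1. That interval includes the −0.77 of *Fbln5*.

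A second *Efemp2* probe, A_66_P101780 at 5476212 to 5476271, was dim. It was well above background on all 3 NEXN-WT arrays, at −2.80, −3.25 and −3.08, and on no NEXN-S437E array, at −5.35, −3.83 and −4.16. It passed the filter only through the group in which it was brighter. With NEXN-S437E its signal was at least 1.17-fold lower, a bound that sets the NEXN-WT mean against, for each NEXN-S437E array, its lowest detected value or the value of this probe, whichever was higher. The fitted log2 difference of −1.41 is set against a group in which the probe was not detected and is no measured size, and under normexp background correction it was 0.00.

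*Efemp1*, which encodes fibulin-3, was the 1 gene that was higher. Its leading probe A_51_P337412 lies on chromosome 11 of mm9 from 28826538 to 28826597, and A_55_P2596096 lies 5131 bases upstream from 28821407 to 28821466. The second frame of A_55_P2596096 has 19 codons without a stop, 3 of them for cysteine, and the first frame of the dim *Efemp2* probe has 20 codons with 2 cysteines. Both sequences are printed with these cysteine codons in capitals, as the EGF-like domains of fibulins are rich in cysteine.

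*Efemp1* A_55_P2596096: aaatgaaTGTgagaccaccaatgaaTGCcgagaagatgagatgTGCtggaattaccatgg
*Efemp2* A_66_P101780: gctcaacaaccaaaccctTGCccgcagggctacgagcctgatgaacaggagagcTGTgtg

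On A_51_P337412 *Efemp1* read −0.19, 0.31 and 0.99 in the NEXN-WT hearts and 1.79, 1.99 and 2.14 in the NEXN-S437E hearts. NEXN-WT replicate 1, the highest array for most of the other genes, was here the lowest. The log2 fold change was 1.60 (SE 0.28, limma adjusted p = 0.0853), a 3.03-fold increase, and 1.32 without NEXN-WT replicate 1. A_55_P2596096 read −4.01, −2.41 and −1.87 against −1.38, −0.92 and −0.94 and was well above background on 2 NEXN-WT and 3 NEXN-S437E arrays, so that it passed the filter only through the group in which it was brighter. Its log2 fold change was 1.68 (SE 0.49, limma adjusted p = 0.182), and 1.06 without NEXN-WT replicate 1. Under normexp background correction it was 0.80 and the probe was not called. The pair shifted against each other by −0.08 (exact permutation p = 1), and by 0.26, in the other direction, without NEXN-WT replicate 1.

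**Figure D3:**
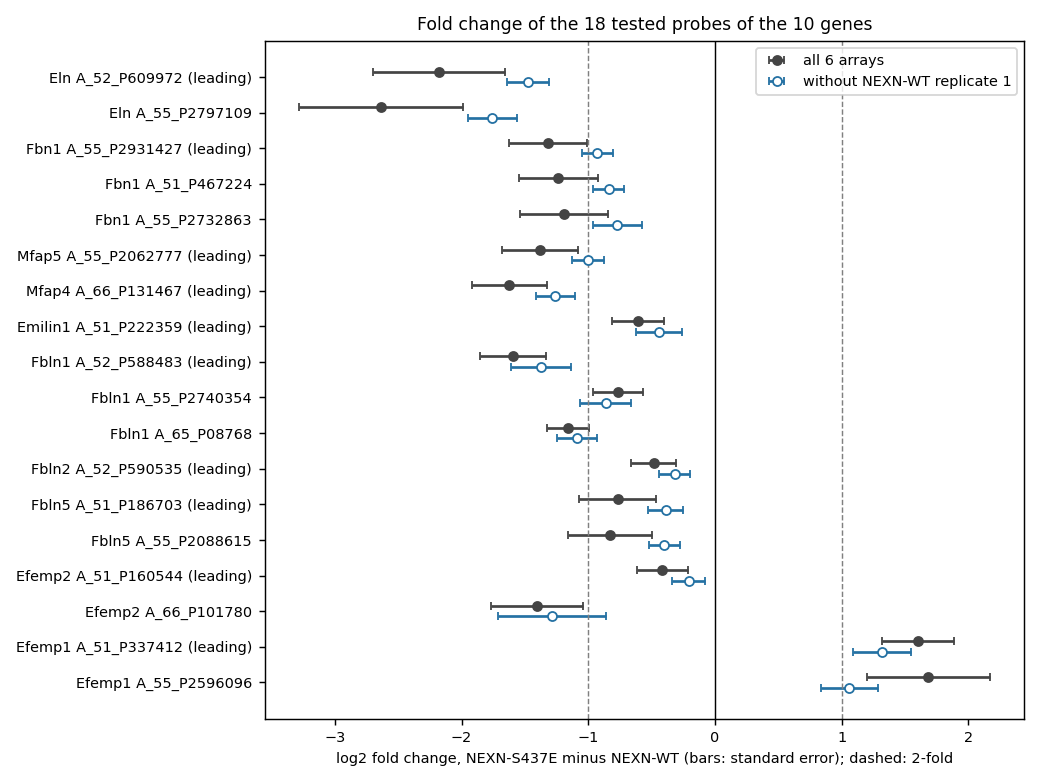
Log2 fold change (NEXN-S437E minus NEXN-WT, horizontal axis) with its standard error for the 18 tested probes, from all 6 arrays (filled) and without NEXN-WT replicate 1 (open), with dashed lines at 2-fold. *Eln* moves most when the array is left out, from −2.18 to −1.47 on its leading probe, and no probe changes direction. The value of *Efemp2* A_66_P101780 is set against a group in which it was not detected.

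The genes were also set against *Fbn1* within each array, which compares changes and not levels. *Fbn1* itself changed by −1.32 without overlap between the groups, so a gene with little change can rise against it without overlap. How many of all tested probes do so was not counted. The difference between the *Mfap5* and *Fbn1* leading probes stayed between 1.78 and 1.91 on all 6 arrays, so that *Mfap5* changed by −0.06 relative to *Fbn1* (exact permutation p = 0.2, adjusted 0.225 over 9 genes). *Eln* fell by 0.86 more than *Fbn1* and *Mfap4* by 0.30 more, without overlap between the groups. *Efemp2*, *Fbln2*, *Emilin1* and *Fbln5* changed by 0.90, 0.84, 0.71 and 0.55 relative to *Fbn1*, again without overlap. For these 6 genes and *Efemp1* the exact permutation p was 0.1, the smallest possible, and 0.129 after adjustment. *Fbln1* overlapped, with a relative change of −0.27 (exact permutation p = 0.5). On the 5 arrays without NEXN-WT replicate 1 the relative change was −0.55 for *Eln*, −0.45 for *Fbln1*, −0.33 for *Mfap4*, −0.08 for *Mfap5* and 2.25 for *Efemp1*. It was 0.72 for *Efemp2*, 0.61 for *Fbln2*, 0.54 for *Fbln5* and 0.49 for *Emilin1*, and *Fbln1* still overlapped.

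Position on the slide was shared in part. Row 1 of the slide held NEXN-S437E replicate 1 together with all 3 NEXN-WT arrays, and the next held the other 2 NEXN-S437E arrays and no other group. Within the shared row, NEXN-S437E replicate 1 minus the NEXN-WT mean was −2.12 for *Eln*, −1.37 for *Fbn1*, −1.39 for *Mfap5*, −1.65 for *Mfap4* and −1.30 for *Fbln1* on their leading probes. It was −0.35 for *Emilin1*, −0.41 for *Fbln2*, −0.79 for *Fbln5*, −0.31 for *Efemp2* and 1.42 for *Efemp1*. With slide row as a block, 10 member probes were called lower and 1 higher, but that contrast is NEXN-S437E replicate 1 alone against NEXN-WT, and the arrays of the other row supply only the spread. On the normalized log2 values that the authors deposited, the leading probes differed by −2.23 (*Eln*), −1.76 (*Fbln1*), −1.67 (*Mfap4*), −1.64 (*Mfap5*), −1.48 (*Fbn1*), −0.92 (*Fbln5*), −0.69 (*Fbln2*), −0.60 (*Emilin1*), −0.53 (*Efemp2*) and 1.58 (*Efemp1*).

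The members were chosen as elastic fibre and fibulin genes, so the annotation terms they share follow from that choice. In the deposited annotation all 10 carry the GO term proteinaceous extracellular matrix, which 194 tested genes have. Calcium ion binding is given for 6, the 5 fibulins and *Fbn1*, so this term holds 2 genes that fell, the 1 that rose and 3 that did not pass by their leading probes. The term elastic fiber is given for *Eln*, *Fbln1*, *Fbln5* and *Mfap4*, and for no other tested gene. Among the 19 probes 3 hold AATAAA or ATTAAA, against 15.5% of the tested probes.

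Promoters of 7 of the genes were in the RefSeq table (build GRCm38.p6), 11 windows in all, and the 250 bases before each start were searched on both strands for 5 motifs. The SP1 motif GGGCGG was in 8 of the 11 windows, of all genes but *Emilin1*, and in 32.7% of the 32851 promoters of the table. SMAD's CAGAC was in 5 of the 11 windows (of *Efemp2*, *Emilin1*, *Fbln1* and *Fbln5*) and in 42.2% of promoters, and the AP-1 motif TGANTCA was in 1 window, that of *Efemp1*, and in 6.75%. Windows of 1 gene can overlap and are not independent. TEAD's CATTCC and the TATA box TATAAA were in none of the 11 windows, against 12.6% and 12.4% of promoters. The upstream bases of *Efemp1* and *Fbn1* are shown because these genes moved in opposite directions, with the AP-1 match of the first and the SP1 match of the second in capitals. Each printed stretch ends at the base before the RefSeq span of the gene, which begins ahead of the start used for the window, so the SP1 match of *Efemp1*, nearer that start, is not printed.

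*Efemp1*, chr11:28852955-28853153, plus strand: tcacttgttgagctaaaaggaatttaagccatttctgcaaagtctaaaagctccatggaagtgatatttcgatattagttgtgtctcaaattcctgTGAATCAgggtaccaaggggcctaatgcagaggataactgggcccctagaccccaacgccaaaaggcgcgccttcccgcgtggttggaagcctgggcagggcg
*Fbn1*, chr2:125506486-125506688, minus strand: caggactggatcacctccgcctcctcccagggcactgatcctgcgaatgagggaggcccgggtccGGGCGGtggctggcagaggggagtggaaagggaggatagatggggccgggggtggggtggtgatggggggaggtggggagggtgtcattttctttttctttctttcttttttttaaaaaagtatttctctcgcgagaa

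Of 23 other genes of elastic fibre assembly 20 were tested, with 29 probes. Of these 11 were called lower and 0 higher, 6 had positive values that were not called (the highest 0.46, for *Emilin2*), and the log2 fold changes had a median of −0.66. The called probes of *Fbln7* and *Loxl3*, *Lox* A_66_P138929 and *Mfap2* A_52_P28379 passed the filter only through NEXN-WT. Among probes well above background on all 6 arrays 7 were called lower. The largest decreases among genes measured on all 6 arrays were those of *Ltbp2* (−3.80), a latent TGF-β binding protein of microfibrils, and *Fbn2* (−3.18), fibrillin-2. *Lox*, the lysyl oxidase that crosslinks elastin and collagen, read 3.71, 1.34 and 0.71 with NEXN-WT and −0.72, −0.94 and −0.71 with NEXN-S437E, a log2 fold change of −2.71. *Adamtsl2* and *Mfap2* followed with −1.44 and −1.43. None (0) of the 29 passed the adjusted threshold in limma, with 18 at an unadjusted p under 0.05. Without NEXN-WT replicate 1 there were 7 called lower, 4 past the adjusted threshold and a median of −0.43. The 7 included *Fbln7*, *Loxl3*, *Lox* A_66_P138929 and *Mfap2* A_52_P28379, which passed the filter only through NEXN-WT. The changes were then −2.97 for *Ltbp2*, −2.46 for *Fbn2*, −1.82 for *Lox*, −0.98 for *Mfap2* and −0.86 for *Adamtsl2*, the last 2 under 2-fold. Of the other latent TGF-β binding proteins, *Ltbp3* was called lower (−1.02, or −0.72 and not called without that array), and *Ltbp1* and *Ltbp4* (−0.17 and −0.42 on their leading probes) were not called.

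Among enzymes that degrade elastin and parts of the elastin receptor, 13 probes of 9 genes were tested and 3 were called lower, with a median of −0.25. They were *Mmp2* (−1.76), *Ctsk* (−1.51) and *Mmp14*, at least 2.25-fold lower, which no NEXN-S437E array detected well above background. No array detected *Mmp9* well above background. Of 28 probes for 15 binding partners of fibulins and fibrillin, 6 were called lower, with a median of −0.59. By leading probe these were *Fn1* (−1.34), *Tgfb3* (−1.34) and *Vcan* (−1.13), which encode fibronectin, a TGF-β ligand and versican. *Tgfb2* was called through another probe (−1.12) and not through its leading one (−0.87). Without NEXN-WT replicate 1 the partners' median was −0.37 and 1 partner probe was called lower, at −1.23 for a second probe of *Fn1*. The leading values were −0.90 (*Fn1*), −0.95 (*Tgfb3*) and −0.64 (*Vcan*). The elastin enzymes and receptor parts had 3 called lower and a median of −0.18, with −1.23 for *Mmp2* and −1.04 for *Ctsk*. Past the adjusted threshold in limma were then 2 probes of each list, against 0 on all 6 arrays.

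Fibroblasts are a main source of these proteins in the heart. Of 15 fibroblast marker probes 7 were called lower (median −0.86). All 7 were probes of the collagen genes *Col1a1*, *Col1a2* and *Col3a1*, and by leading probe *Col1a1* had the lowest change (−1.82). The other 7 genes had no called probe, with leading values of −0.86 (*Pdgfra*), −0.79 (*Dpt*), −0.73 (*Lum*), −0.65 (*Mgp*), −0.28 (*Tcf21*), −0.08 (*Dcn*) and 0.24 (*Gsn*). The groups did not overlap for *Pdgfra*, *Dpt*, *Lum* and *Mgp*, which were lower, and for *Gsn*, which was higher, patterns found in 9.17% and 18.7% of all tested probes. Summed over the 10 genes on the linear scale, these markers ranged from 1111 to 1476 times the percentile in the NEXN-WT hearts and from 933 to 1003 in the NEXN-S437E hearts. For 11 activated fibroblast probes 9 were called lower (median −2.98), from −4.11 for *Comp* to −0.39 for *Fap*, and 1 (*Cilp*) passed the adjusted threshold in limma. Their sum ranged from 43.6 to 218 with NEXN-WT, highest in replicate 1, and from 11.5 to 12.7 with NEXN-S437E. *Col1a2* A_55_P2610616 among the called fibroblast probes, and *Cthrc1* A_55_P2744007 and *Postn* A_55_P2716356 among the called activated ones, passed the filter only through NEXN-WT. Without NEXN-WT replicate 1 the counts were 5 and 9, with both of these activated probes still called, and the medians −0.64 and −2.08. Then 3 fibroblast and 7 activated fibroblast probes passed the adjusted threshold in limma. What part these cells have in the members' change was not tested.

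None (0) of 11 smooth muscle probes was called, with a median of 0.01 and a range from −0.43 (*Myh11*) to 0.26 (*Smtn*). Their sum was 133 to 194 with NEXN-WT and 138 to 204 with NEXN-S437E. None of the 5 pericyte probes (median −0.06, *Pdgfrb* −0.35 to *Abcc9* 0.54), the 6 endothelial probes (median 0.03, *Tek* −0.16 to *Emcn* 0.22) or the 9 macrophage probes (median 0.06, *Adgre1* −0.47 to *Cd163* 0.41) was called. The 13 cardiomyocyte probes were all higher, from 0.15 for *Ryr2* to 0.76 for *Tnnt2*, and none was called. Their sum was 1923 to 2531 with NEXN-WT and 2973 to 3138 with NEXN-S437E. Of 3 atrial probes (median −0.54, *Myl4* −0.62 to *Nr2f2* −0.30) and 3 epicardial probes (median 0.23, *Wt1* −0.05 to *Msln* 0.74) none was called, and no array detected *Bmp10*, *Upk1b* or *Lrrn4* well above background. Of 6 T cell probes the highest was *Cd4* at 0.22, and the *Cd3e* probes were not called (−0.55 and −0.20). The other 3 were called lower and passed the adjusted threshold in limma. One was a *Cd3d* probe measured on all 6 arrays (−2.49). Another *Cd3d* probe and that of *Cd3g* passed the filter only through NEXN-WT, as no NEXN-S437E array detected them well above background, and were at least 4.59-fold and 2.18-fold lower. The plasma cell gene *Jchain*, also undetected with NEXN-S437E, was at least 4.13-fold lower, and no array detected *Cd79a* or *Ms4a1* well above background. At an unadjusted p under 0.05 in limma there were 6 of the cardiomyocyte, 2 of the pericyte and 2 of the atrial probes, and 0 of the smooth muscle, endothelial, epicardial and macrophage probes. Some ends of the ranges above come from other than the leading probe. The leading values were −0.29 for *Myh11*, 0.41 for *Ryr2*, 0.43 for *Tnnt2*, −0.07 for *Cd163* and 0.23 for *Wt1*.

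With NEXN-WT replicate 1 left out, the smooth muscle median was −0.26 instead of 0.01, with 9 of 11 probes lower instead of 5. The medians were then −0.14 for pericyte, −0.11 for endothelial, 0.05 for macrophage, 0.33 for cardiomyocyte, −0.39 for atrial and 0.26 for epicardial probes, and 0 of any of these lists was called. Of 7 T cell probes tested on the 5 arrays 4 were called lower, and *Jchain* was called lower. The probe added to the test, *Cd8a* A_52_P443334, was among the 4. It, *Cd3d* A_51_P285206, the *Cd3g* probe and *Jchain* were well above background on no NEXN-S437E array and passed the filter only through NEXN-WT.

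**Figure D4:**
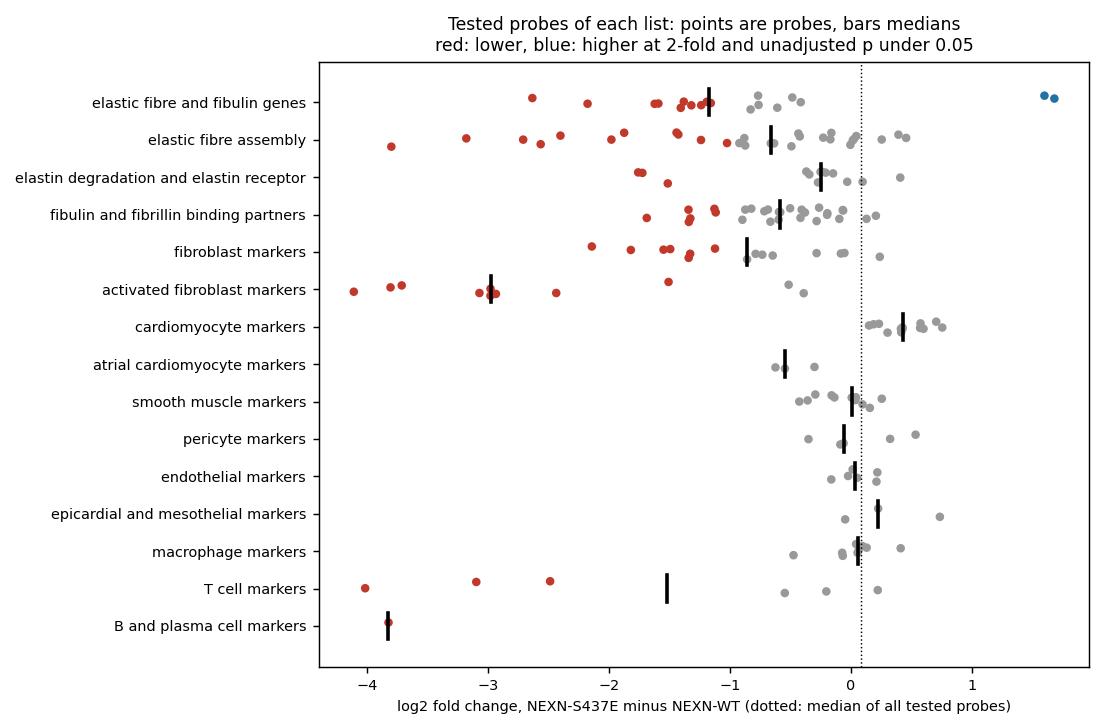
Log2 fold change (NEXN-S437E minus NEXN-WT, horizontal axis) of the tested probes of each gene list (vertical axis). Points are probes, red if called lower and blue if called higher at 2-fold and an unadjusted p under 0.05, and bars are medians. The members' median is −1.17, between those of the fibroblast (−0.86) and activated fibroblast markers (−2.98), and the dotted line is the median of all tested probes, 0.09.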

How the data were processed

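Each of 6 arrays (Agilent SurePrint G3 Mouse v2 8x60K, Cy3) carried RNA from 1 heart. The deposited array files hold spot intensities that the authors extracted with Feature Extraction 10.7.1.1, background-subtracted and detrended within the array, with no normalization between arrays. The authors also deposited a table with these signals per probe, of which 99.8% matched the array files (relative tolerance 0.001). It also holds the normalized log2 values of the authors, whose 6 columns have identical distributions. Their normalization method is not given in the sources used here. Quantile normalization of the processed signals gave nearly the same changes (−2.2286 for the leading *Eln* probe, against −2.2287), so these 2 alternatives are not independent. Probe coordinates are mm9, and no genome of that build was used, so probes were not placed in exons or introns.

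From the log2 processed signal the 75th percentile over all spots that are not controls was subtracted, spots marked as outliers were dropped and a mean was taken over the spots of each probe. The probes detected well above background by every array of one or both groups went into limma 3.58.1 (lmFit and eBayes, R 4.3.3). The number of arrays limits the precision. Calls used the study's thresholds (2-fold, unadjusted p of 0.05) or a Benjamini-Hochberg adjusted p of 0.05 over all 22998 tested probes. In data simulated for the comparison of NEXN-S437E with NEXN-WT, over 22987 probes with 200 changed by 2 on the log2 scale, limma recovered 199 at the first threshold and 178 at the second, and also called 86 and 8 unchanged probes. With no probe changed it called 76 and 0. The simulation drew each probe on its own, with the same SD for both groups, and had no array that stood apart as NEXN-WT replicate 1 did. Its counts are therefore not error rates for these arrays.

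Groups and replicate numbers come from the sample titles. All probes of the 10 members are named. Of the other lists, named genes are the called ones with up to 5 largest decreases measured on all 6 arrays, and for marker lists those of highest and lowest change. *Ltbp1*, *Ltbp3*, *Ltbp4*, *Emilin2*, *Tgfb2*, *Mmp14*, *Cilp*, *Cd3g* and the fibroblast markers other than *Col1a1* and *Gsn* were named after their values were seen. So were *Fbln7*, *Loxl3*, *Cthrc1*, *Postn*, *Cd3e* and *Cd8a*. The members and lists were chosen with earlier results of these data known. Other normalizations, filters, tests, blocks and arrays left out were tried as alternatives. Protein sequences were not used here, and the sequences of only some of the member probes are printed. Figures were drawn with Python 3.11.15 and matplotlib 3.10.9.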

Additional observations from a re-analysis of the deposited data

How the results depend on the processing

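All 18 tested member probes kept their direction under the alternatives tried, apart from the dim *Efemp2* probe, whose log2 fold change was 0.00 with normexp background correction (0.000651, against a fitted −1.41 in which NEXN-S437E was not detected). The count of member probes called lower, 10 in all, was 6 with array weights, which gave NEXN-WT replicate 1 a weight of 0.196, and 5 with 1 probe per gene, which leaves 10 probes. It ranged from 7 to 12 when each array was left out, with 7 without NEXN-WT replicate 1. The count called higher, 2, was 1 with normexp, with the filter on all 6 arrays, with the unpaired t-test, with slide row as a block (in effect NEXN-S437E replicate 1 against NEXN-WT), with 1 probe per gene and with the t-test on the authors' normalized values (an alternative chosen after seeing the data), and stayed 2 with each array left out. The count past the adjusted p, 0, was 1 with normexp, 2 with an intensity trend and 15 with array weights, and from 0 to 5 with arrays left out. Leaving out NEXN-WT replicate 1 gave 5, and leaving out NEXN-WT replicate 3 gave 2 (the leading probes of *Fbln1* and *Efemp1*). The other elastic fibre assembly probes called lower, 11, were 7 with the filter on all 6 arrays and 7 to 13 with arrays left out. With the replicate number as a block, 10 member probes were lower, 2 higher and 0 past the adjusted p. The deviations of same-numbered arrays correlated at −0.15, −0.03 and −0.18. Differently numbered arrays were not correlated, so these values cannot tell whether the numbers pair the samples. The percentile over detected probes moved the median of all probes to −0.02 and left the members' counts at 10 and 2. The causes of these differences were not tested.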
